A study of Mus musculus with 32 samples.

Results

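Chemokines are small secreted proteins that guide white blood cells into and through tissue, and chemokine receptors are the surface proteins that read them. In the deposited gene table, 64 of 55103 rows were chemokines or their receptors by symbol: every symbol starting with Ccl, Cxcl, Ccr or Cxcr and a digit, and Cx3cl1, Cx3cr1, Xcl1, Xcr1 and Ackr1 to Ackr4. They comprised 41 ligands and 23 receptors, and were chosen by symbol, with earlier results of these data known. Their RNA was measured by bulk sequencing in 32 KPC36 tumours of mice, KPC36 being a line used by the study as a model of pancreatic ductal adenocarcinoma. The labels name 4 groups of 8 libraries: tumours treated with carbon ions (carbon_treated), the untreated controls of that arm (carbon_ctrl), tumours treated with photons (photon_treated) and their untreated counterparts (photon_ctrl). Carbon ions are heavy charged particles whose dose peaks where they stop in tissue, whereas photons are the X-rays of conventional radiotherapy. The dose, the host strain, its age, its sex and the site of the tumours were not given in the labels, and neither was the genotype of the line. Tumours were taken on day 4 or day 7, and which of these applies to a library is not among the labels used here, so each group may mix both. The labels do not say that the libraries of a group came from separate animals, so p-values measure the spread between these libraries.

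Chemokines carry conserved cysteines, whose spacing gives the CC, CXC, CX3C and XC classes, and act on receptors that couple to G proteins of the Gi type. Most inflammatory chemokines share receptors, so that several ligands may call the same cell: CXCR3 is known from activated T and NK cells, CXCR2 from neutrophils, CCR2 from monocytes, and CCR3 from eosinophils. The atypical receptors bind chemokines without G protein signalling and remove or transport them. In pancreatic tumours this system is known for bringing in macrophages, neutrophils and regulatory T cells, and for the exclusion of cytotoxic T cells.

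Library totals ranged from 13891863 to 71645903 estimated counts, and the 112 pairs of libraries within a group correlated at 0.953 to 0.985 (log2 CPM, where CPM is a count scaled to a common library total). The libraries of the groups differed in more than treatment. A letter of unstated meaning, D or M, opens each title, and D occurred in 4 carbon-ion controls, 3 carbon-ion irradiated libraries and no photon library. Title numbers of the photon controls did not overlap those of the photon-irradiated tumours, so anything they mark cannot be told apart from photon treatment. Skeletal muscle markers (6 genes, summed) had a median of 595 CPM and a range of 3.15 to 1264 CPM in the photon controls, but a median of 6.94 CPM and a range of 0.963 to 307 CPM after photons. They exceeded 1000 CPM in 6 libraries, which were 3 photon controls, 2 carbon-ion controls and 1 carbon-ion irradiated library, and counts of calls are also given without them. Epithelial markers, the label calling the cells malignant, summed to between 3018 and 6092 CPM over the 32 libraries, and all 7 were tested. In bulk RNA, fewer cells of a type and less RNA per cell cannot be told apart.

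Of the 64 members, 54 passed the filter on low counts, namely 33 ligands and 21 receptors. The 10 that did not were Cxcr1, Ccl26, Ccl1, Ccl19, Ccl21d, Ccl19-ps1, Ccl19-ps3, Ccl27b, Xcl1 and Ccr1l1, none of which exceeded a count of 22 in any library. Ccl26, Ccl21d, Ccl19-ps1 and Ccl19-ps3 had a count of 0 in all 32 libraries. The Ccl19, Ccl21 and Ccl27 rows have near-identical copies that could share reads, so their values are uncertain. Relative to exonic length, as the median of the 4 group medians in CPM per kilobase, the most abundant ligands were Cxcl14 at 53.7, Ccl6 at 42.6, Ccl8 at 36.3, Cxcl16 at 34.5, Cx3cl1 at 22.9 and Cxcl5 at 21.8. The most abundant receptors on the same scale were Ccr1 at 10.9, Ackr3 at 10.6 and Cxcr4 at 10.4. The CXCR3 ligand Cxcl10 stood at 1.13 on that scale and the receptor Cxcr3 at 0.339. Summed over the 54 tested members, the family had a median of 811 CPM without and 893 CPM with carbon ions, and of 935 CPM without and 637 CPM with photons. The ranges of these sums overlapped between all groups, at 630 to 970, 743 to 1491, 617 to 1369 and 445 to 954 CPM.

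After photons, 2 ligands rose (Cxcl10 and Cxcl11), while 1 ligand (Ccl24) and 6 receptors (Ccr1, Ccr3, Ccr4, Ccr6, Cxcr2 and Ackr1) fell. These 9 of 54 tested members passed an adjusted p of 0.05 (edgeR quasi-likelihood test, Benjamini-Hochberg over 20474 genes), where 3.81% of all tested genes did. By direction, 2 of 54 were higher against 1.71% of genes, and 7 of 54 lower against 2.10% of genes. The estimated log2 fold change was below 0 in 38 members and above 0 in 16, with a median of -0.41 over the members and -0.00 over all tested genes. At an unadjusted p under 0.05 there were 28 members, 24 of them lower. The share of all genes under that limit was not computed in any comparison, so counts at an unadjusted p have none beside them. No member separated the photon groups fully, and the share of all genes that did was not computed. Receptors carried most of the calls, with 17 of 21 tested receptors and 21 of 33 tested ligands estimated below 0.

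After carbon ions, 0 of 54 members passed, as did 0% of all tested genes (edgeR, adjusted p). At an unadjusted p under 0.05 there were 7 members, namely Cxcl10, Cxcl11, Ccl5, Ccl6, Cxcl3 and Ccr3 with higher values and Xcr1 with lower values. DESeq2's test called 17 genes, of which 1 was a member, Cxcl10. Estimates were above 0 in 29 of 33 tested ligands and in 9 of 21 tested receptors, with medians of 0.34 and -0.11 on the log2 scale, beside a median of 0.01 over all tested genes. The carbon-ion effect and the photon effect were set against each other by the test of their difference, which called 0 members and 0.0781% of all genes (0.0342% higher and 0.044% lower, edgeR). In that test 18 members had an unadjusted p under 0.05, all with the more positive value under carbon ions, and DESeq2, which called 270 of all genes where edgeR called 16, called 5: Ccl6, Ccl9, Ccl24, Ccr1 and Ccr3. So, for members whose photon test passed and whose carbon-ion test did not, a difference between the beams did not pass with edgeR, and with DESeq2 it passed for Ccl24, Ccr1 and Ccr3.

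The photon calls depended on which libraries were included. Without the 6 libraries with more than 1000 CPM of muscle markers, 0 of 54 members and 5 of all genes passed in the photon comparison, while the log2 fold changes were 2.005 for Cxcl10, 1.89 for Cxcl11, -2.84 for Ackr1, -2.17 for Ccr3, -1.82 for Ccl24, -1.47 for Ccr6, -1.21 for Ccr4, -0.66 for Cxcr2 and -0.37 for Ccr1. That setting also leaves 5 photon controls in place of 8. With each of the 16 photon libraries left out in turn, Cxcl10 and Cxcr2 passed in 16 of 16 fits, Ackr1 in 15, Ccr6 in 14, Ccr3 in 13, Ccr1 in 8, Cxcl11 in 7, Ccl24 in 6 and Ccr4 in 4. Photon control 3 decided the most: without it only Cxcl10 and Cxcr2 passed.

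**Figure D1:**
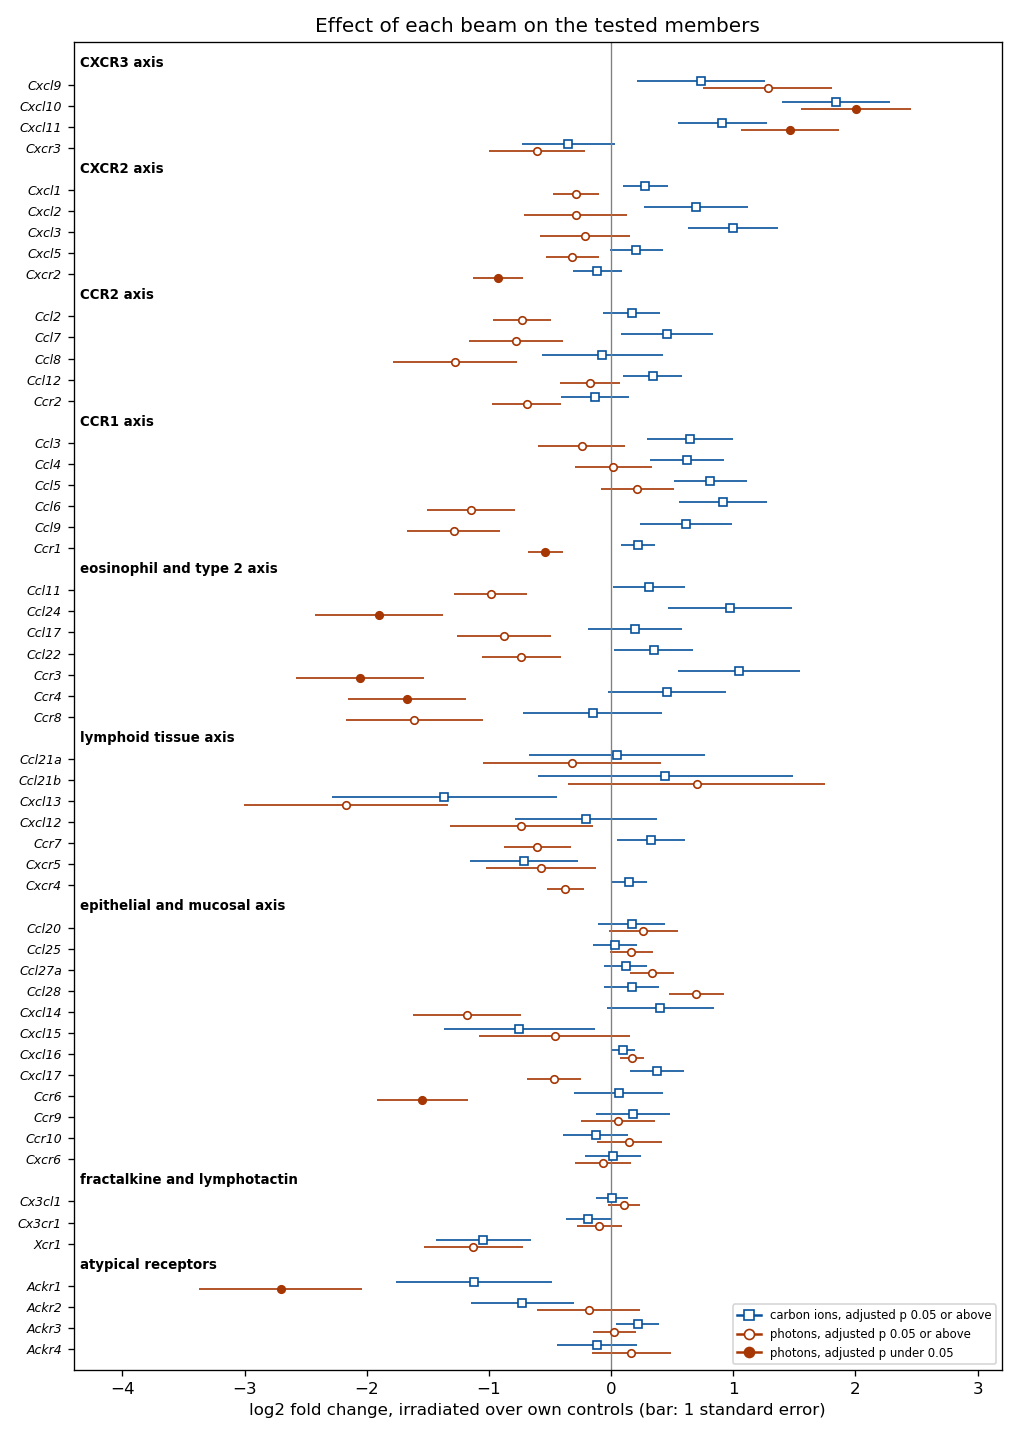
Log2 fold change of the tested members, irradiated over the untreated controls of the same arm (x axis), with members on the y axis grouped by role, squares for carbon ions and circles for photons, and bars of 1 standard error. The filled circles mark the 9 members with an adjusted p under 0.05 after photons, of which Cxcl10 and Cxcl11 lie above 0 and the other 7 below, and no carbon-ion square is filled.

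The interferon-inducible ligands Cxcl9, Cxcl10 and Cxcl11 attract T and NK cells through Cxcr3. Cxcl10 had 0.897, 1.24 and 2.38 CPM (lowest, median and highest of 8) in the photon controls, against 1.13, 3.12 and 15.8 CPM after photons. In the carbon-ion arm it had 1.04, 1.98 and 3.21 CPM in the controls and 1.88, 6.27 and 16.5 CPM after irradiation. In each arm 6 of 8 irradiated tumours lay above the highest control and the other 2 within the control range. The photon log2 fold change was 2.005 ± 0.45 (SE, edgeR adjusted p = 0.0135), with 6 of 8 irradiated tumours above the control median, and the carbon-ion log2 fold change was 1.84 ± 0.44 (adjusted p = 0.314), with 7 of 8 above it. The difference between these effects was -0.16, with a 95% interval from -1.41 to 1.08, so the data allow either beam to have the larger effect. The gene lies at chr5:92346638-92348889 on the minus strand of GRCm38 (mm10), next to Cxcl9 and Cxcl11, and an exon overlaps one of Art3 on the opposite strand, whose photon log2 fold change was -0.42 (edgeR adjusted p = 0.363).

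Cxcl11 was low, at 0.0741, 0.156 and 0.277 CPM in the photon controls, which are 2 to 9 counts, and at 0.0879, 0.395 and 0.939 CPM after photons. All but 2 irradiated tumours lay above the highest control. Its log2 fold change was 1.46 ± 0.40 (edgeR adjusted p = 0.0358), and the GENCODE annotation lists the gene as a polymorphic pseudogene. In the carbon-ion arm Cxcl11 had a median of 0.367 CPM in the controls and 0.598 CPM after irradiation, with a log2 fold change of 0.91 ± 0.36 (adjusted p = 0.713). In the untreated tumours Cxcl11 was already higher in the carbon-ion controls than in the photon controls by 1.31 ± 0.40 (log2, edgeR adjusted p = 0.0363), with 8 of 8 above the photon control median. That call was lost with the title letter as covariate, in the M-titled libraries alone, with no low-count filter or without the 6 muscle-rich libraries. Cxcl9 had medians of 0.778 CPM in the photon controls, against 1.25 CPM after photons, and its log2 fold change of 1.28 ± 0.53 did not pass (adjusted p = 0.149). The highest photon-irradiated tumour reached 8.53 CPM and the lowest 0.326 CPM, against 0.348 to 3.02 CPM in the controls, so the ranges overlapped. For the receptor the estimate had the other sign. Cxcr3 had medians of 0.646 CPM in the photon controls versus 0.336 CPM in the irradiated tumours, and its log2 fold change of -0.61 ± 0.39 did not pass either (edgeR adjusted p = 0.382), and was -0.31 without the 6 muscle-rich libraries.

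T cell markers beside these values were mixed. Of 9 tested T cell markers, 8 were estimated lower after photons, with Cd3d (-1.99, edgeR adjusted p = 0.0413) and Cd2 (-1.65, adjusted p = 0.0265) passing, whereas Cd8a rose (1.23, adjusted p = 0.0453). All 3 of these genes had group means near or below 1 CPM. Summed over the 9 tested markers, the level was 8.34 to 17.6 CPM in the photon controls and 4.90 to 10.3 CPM after photons. In the carbon-ion controls 8 of the 9 were estimated lower than in the photon controls (median -0.72), with 0 passing (edgeR). NK cell markers had 0 of 7 called and 0 at an unadjusted p under 0.05 (edgeR). The part of these cells in the Cxcl10 and Cxcr3 values was not tested. Among genes of inducing signals, Irf1, a transcription factor of the interferon response, had a photon log2 fold change of -0.11 and did not pass (edgeR adjusted p = 0.280).

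The sequences just upstream of the start sites are shown for Cxcl10, the member with the largest rise after photons, and for the neutrophil-attracting Cxcl1, Cxcl2 and Cxcl3, which share a motif but had no photon call. Each holds the 250 bases before the start site on the gene's own strand (RefSeq, GRCm38.p6), with motif matches in capitals. The intervals are chr5:92348890-92349139 (minus strand) for Cxcl10, chr5:90890995-90891244 for Cxcl1, chr5:90903649-90903898 for Cxcl2 and chr5:90785851-90786100 for Cxcl3, the last 3 on the plus strand.
Cxcl10: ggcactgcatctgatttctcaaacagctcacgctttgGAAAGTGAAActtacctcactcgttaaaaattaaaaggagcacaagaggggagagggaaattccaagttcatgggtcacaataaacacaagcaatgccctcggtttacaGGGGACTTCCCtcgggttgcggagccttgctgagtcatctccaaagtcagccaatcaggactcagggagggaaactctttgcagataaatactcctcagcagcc
Cxcl1: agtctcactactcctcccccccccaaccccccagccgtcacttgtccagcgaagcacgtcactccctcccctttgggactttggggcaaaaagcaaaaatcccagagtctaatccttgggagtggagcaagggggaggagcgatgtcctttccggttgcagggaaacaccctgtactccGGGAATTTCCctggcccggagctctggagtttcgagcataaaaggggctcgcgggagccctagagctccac
Cxcl2: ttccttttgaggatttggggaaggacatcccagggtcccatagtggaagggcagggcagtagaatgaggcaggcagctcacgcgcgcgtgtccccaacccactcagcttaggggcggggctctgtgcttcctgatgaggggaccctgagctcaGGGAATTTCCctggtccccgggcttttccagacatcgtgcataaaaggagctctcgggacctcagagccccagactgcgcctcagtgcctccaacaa
Cxcl3: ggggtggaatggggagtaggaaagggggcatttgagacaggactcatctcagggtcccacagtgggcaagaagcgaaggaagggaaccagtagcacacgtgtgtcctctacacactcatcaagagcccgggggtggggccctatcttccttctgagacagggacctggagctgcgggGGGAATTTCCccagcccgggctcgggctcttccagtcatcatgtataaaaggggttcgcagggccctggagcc
In Cxcl10 the first capitals are a match to the core of interferon-stimulated response elements (GAAA, any 2 bases, GAAA), starting at -213 from the start site, and the second are overlapping matches to the NF-kB consensus starting at -104 and -103. In Cxcl1, Cxcl2 and Cxcl3 the capitals are the same NF-kB match, starting at -71, -97 and -73. Promoters were found for 47 members, and both strands were searched. This interferon core occurred in 3 of 47 (6.38%), namely Ccl19, Cxcl10 and Cxcl14, against 2.98% of 32536 promoters. The NF-kB consensus occurred in 10 of 47 (21.3%) against 5.03%. Besides those printed, the 10 were Ccl1, Ccl9, Ccl20, Ccr3, Ccr6 and Ackr2. The STAT-type motif with 3 bases between TTC and GAA occurred in 4 of 47 members (8.51%) against 7.04% of promoters, and that with 4 bases between them in 1 (2.13%) against 5.89%. A match describes letters in this window and no site in use.

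**Figure D2:**
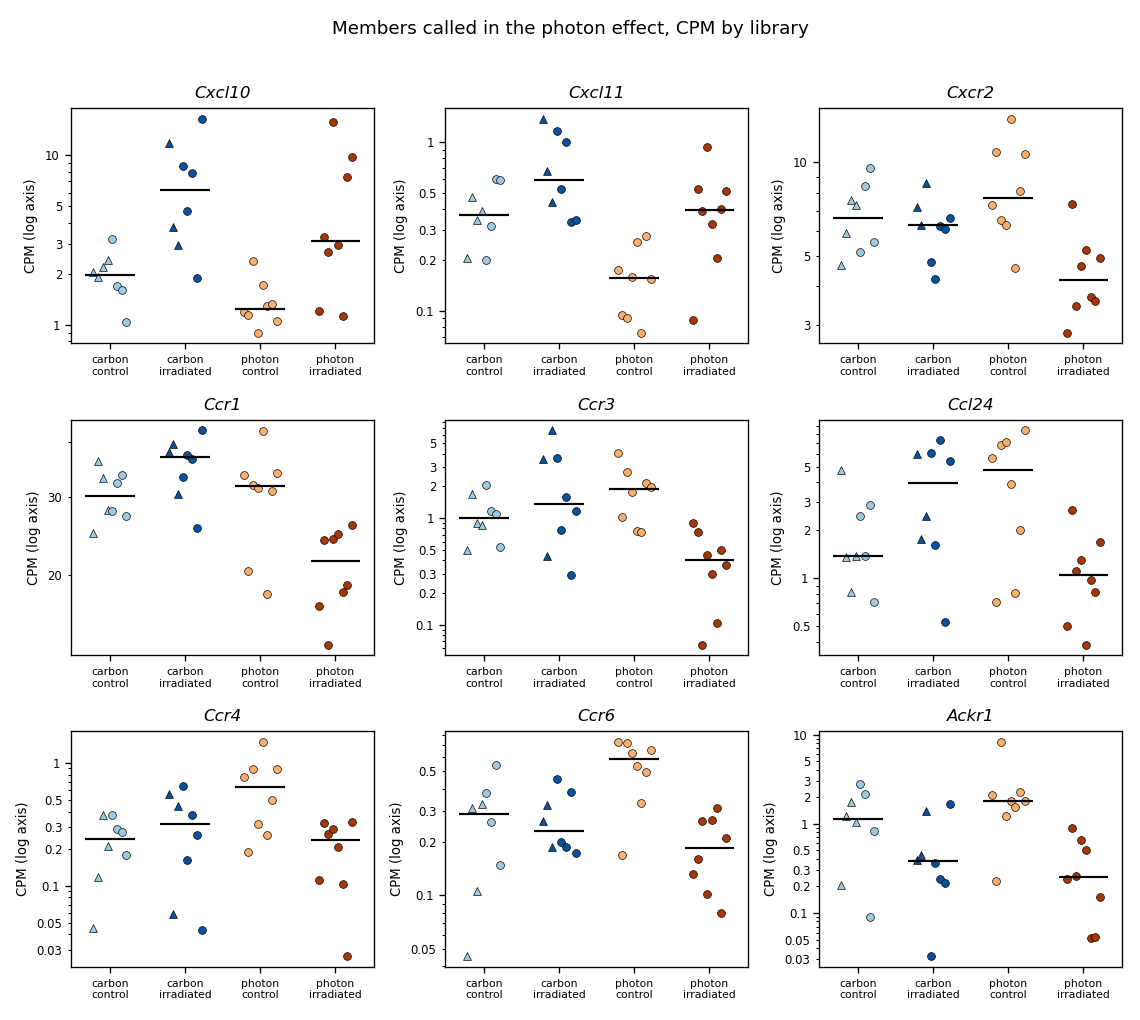
CPM of the 9 members called after photons in each library (log axis), by group on the x axis, with triangles for D-titled and circles for M-titled libraries and lines at the group medians. Cxcl10 and Cxcl11 sit higher after both beams with overlap, and for the other 7 all photon-irradiated libraries sit below the median of the photon controls.

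Cxcr2, the neutrophil receptor, fell after photons, and none of its tested ligands passed. It had 4.59, 7.70 and 13.8 CPM in the photon controls, against 2.84, 4.18 and 7.36 CPM after photons. All 8 irradiated tumours lay below the control median, and the ranges overlapped. The log2 fold change was -0.93 ± 0.20 (edgeR adjusted p = 0.0129). In the carbon-ion arm the medians were 6.61 and 6.27 CPM, with a log2 fold change of -0.11 ± 0.20 and a 95% interval from -0.53 to 0.30. The ligands Cxcl1, Cxcl2, Cxcl3 and Cxcl5 had photon log2 fold changes from -0.32 to -0.21 and carbon-ion log2 fold changes from 0.20 to 0.99, of which none passed. Cxcl3 had 0.862, 1.68 and 3.64 CPM in the carbon-ion controls and 1.305, 4.16 and 5.74 CPM after carbon ions (log2 fold change 0.99 ± 0.37, edgeR adjusted p = 0.628), with 7 of 8 above the control median. Cxcl1 was higher after carbon ions than after photons by 0.65 ± 0.19 (log2, adjusted p = 0.0379), at 8.64, 14.3 and 26.4 CPM against 7.67, 9.34 and 13.4 CPM. Of the neutrophil markers, 5 of 5 tested were estimated lower after photons and 2 passed, Csf3r (-0.79) and Retnlg (-1.89), and their summed level was 19.3 to 51.1 CPM in the photon controls and 11.9 to 28.1 CPM after photons. Between the irradiated tumours 5 of 5 were estimated higher after carbon ions than after photons (median 1.31), with Retnlg, S100a8 and S100a9 passing. The defining marker Ly6g was too low to test. The part of neutrophil numbers in the Cxcr2 and Cxcl1 values was not tested.

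The monocyte receptor Ccr2 and its ligands gave no call after either beam. Ccl2, the main monocyte attractant, had 8.73, 18.3 and 32.004 CPM in the photon controls, against 6.29, 12.2 and 17.6 CPM after photons. All 8 irradiated tumours were below the control median, and the log2 fold change of -0.73 ± 0.24 missed the threshold (edgeR adjusted p = 0.0687), and was -0.47 without the 6 muscle-rich libraries. In the carbon-ion arm Ccl2 had medians of 16.4 and 18.4 CPM (0.17 ± 0.23). Ccr2 itself had photon medians of 40.2 and 22.3 CPM (-0.69 ± 0.28, adjusted p = 0.147) and carbon-ion medians of 36.0 and 26.2 CPM (-0.13 ± 0.28). Ccl7 and Ccl8 had photon log2 fold changes of -0.78 and -1.28, which did not pass. Ccl12, a further CCR2 ligand of mice, was the member of this group that differed between the irradiated arms. It had 2.29, 4.08 and 5.30 CPM after carbon ions and 0.849, 2.38 and 3.39 CPM after photons, a log2 difference of 0.86 ± 0.24 (edgeR adjusted p = 0.0373).

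Comparing the irradiated tumours directly, 6 of 54 members were higher after carbon ions than after photons (Ccl6, Ccl9, Ccl12, Cxcl1, Ccr1 and Ccr3) and 0 lower, where 3.55% of all tested genes were higher and 1.54% lower (5.08% in all, edgeR). Estimates were above 0 in 42 members, with a median of 0.48 against 0.01 over all genes. At an unadjusted p under 0.05 there were 22 higher members and 1 lower, Ccl28, and DESeq2 called 9 higher while its count over all genes was 2018, against 1041 by edgeR. The summed skeletal muscle markers had a median of 310 CPM in the carbon-ion irradiated group, against 6.94 CPM after photons, and 6 of 6 were estimated higher after carbon ions at an unadjusted p under 0.05, 0 passing (edgeR). This comparison also contains whatever separated the arms before treatment, and whatever the separate title numbers of the photon-irradiated libraries mark. The untreated controls of the arms differed in 2 members, Cxcl11 higher and Ccr4 lower in the carbon-ion controls, where 9.14% of all genes passed (5.13% higher and 4.01% lower). Neither was called with the title letter as covariate, in the M-titled libraries alone, with no filter on low counts or without the 6 muscle-rich libraries. With each irradiated library left out in turn, Ccr1 and Ccr3 passed in 16 of 16 fits, Ccl12 in 9, Cxcl1 and Ccl9 in 7 and Ccl6 in 5. Without the 6 muscle-rich libraries 7 members were called, the same 6 and Ccl24, while the count over all genes went from 1041 to 1618. Fewer than 6 members were called with the title letter as covariate or with no filter on low counts. The counts over all genes were then 502 and 319.

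Ccl6 and Ccl9, myeloid ligands of Ccr1 in mice, had estimates of opposite sign for the beams. Ccl6 had 37.4, 95.9 and 248 CPM in the photon controls, against 28.1, 47.4 and 67.96 CPM after photons. In the carbon-ion arm it had 28.2, 56.9 and 110 CPM in the controls and 31.6, 118 and 204 CPM after irradiation. All 8 photon-irradiated tumours lay below the photon control median and 6 of 8 carbon-ion irradiated tumours above theirs, with overlap in both arms. The log2 fold changes were -1.15 ± 0.36 after photons (edgeR adjusted p = 0.0637) and 0.92 ± 0.36 after carbon ions (adjusted p = 0.696), and their difference was 2.06 ± 0.51 (adjusted p = 0.0822). Between the irradiated groups Ccl6 was higher after carbon ions by 1.24 ± 0.36 (adjusted p = 0.0415). The controls had the reverse order, with 7 of 8 carbon-ion controls below the photon control median (-0.82 ± 0.36, adjusted p = 0.154). Ccl9 showed a similar set of values, with medians of 51.003 and 19.3 CPM in the photon arm (-1.29 ± 0.38, adjusted p = 0.0507), 36.3 and 48.9 CPM in the carbon-ion arm (0.61 ± 0.38), and 8 of 8 carbon-ion irradiated tumours above the photon-irradiated median (1.32 ± 0.38, edgeR adjusted p = 0.0408).

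Ccr1 fell after photons. It had 18.2, 31.8 and 42.4 CPM in the photon controls, against 13.97, 21.5 and 26.0 CPM after photons, with all 8 irradiated tumours below the control median and 2 controls inside the irradiated range. The log2 fold change was -0.54 ± 0.14 (edgeR adjusted p = 0.0288). After carbon ions it had 25.5, 36.99 and 42.5 CPM, against 24.9, 30.2 and 36.3 CPM in the controls of that arm (0.22 ± 0.14, adjusted p = 0.9752). The irradiated groups differed by 0.76 ± 0.14 (edgeR adjusted p = 0.0130), while the controls differed by 0.00 with a 95% interval from -0.28 to 0.29. Ccl5, which is made by T cells among others, had carbon-ion medians of 1.26 and 2.41 CPM (0.81 ± 0.30, adjusted p = 0.621) and photon medians of 1.42 and 1.82 CPM (0.21 ± 0.30, and 0.32 without the muscle-rich libraries). Ccl3 and Ccl4 reached at most 2.98 and 1.49 CPM and had no call.

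Macrophage and monocyte markers are given beside these members. Of 10 tested, 8 were estimated lower and 2 higher after photons, with only Csf1r (-0.54) and Mrc1 (-0.77) passing, 0 passed after carbon ions, and 10 of 10 were estimated higher after carbon ions than after photons, C1qa, C1qb, C1qc and Csf1r passing. Their summed level was 589 to 1038 CPM in the photon controls, 389 to 752 CPM after photons, 709 to 996 CPM in the carbon-ion controls and 665 to 1131 CPM after carbon ions. The part of macrophage content in the Ccl6, Ccl9 and Ccr1 values was not tested.

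**Figure D3:**
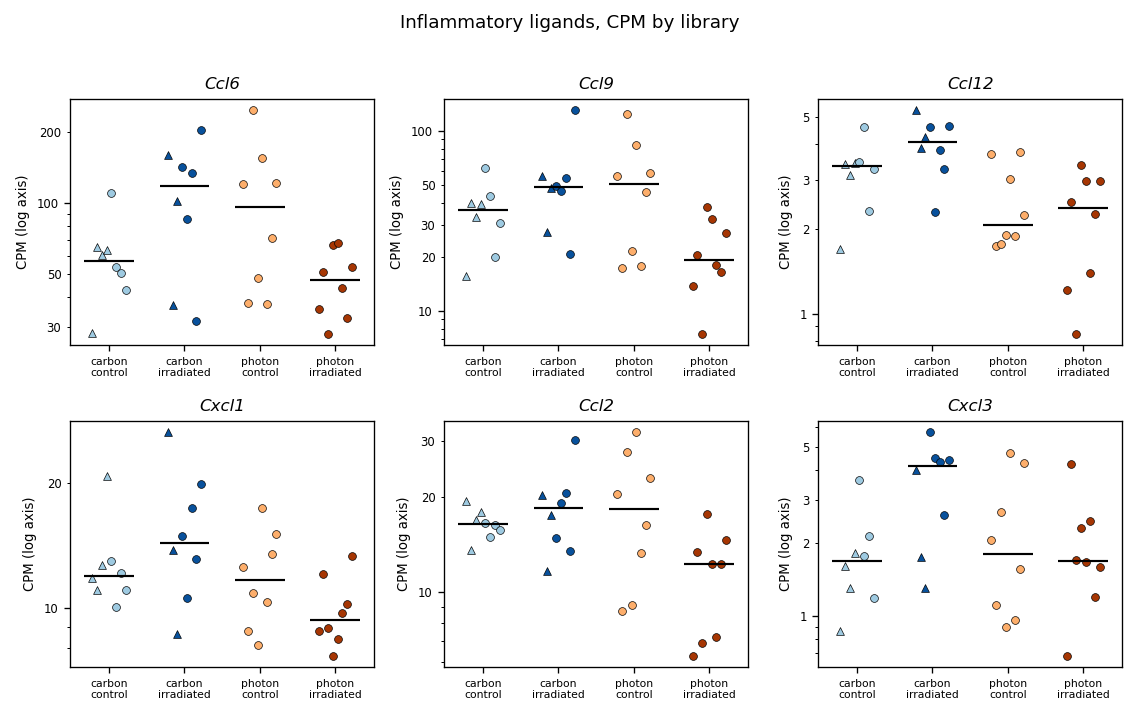
CPM of 6 inflammatory ligands in each library (log axis), by group on the x axis, with triangles for D-titled and circles for M-titled libraries and lines at the group medians. Ccl6 and Ccl9 sit lower after photons than in the photon controls (medians of 47.4 against 95.9 and of 19.3 against 51.003 CPM) and higher after carbon ions than in the carbon-ion controls, with overlap in each arm.

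The eosinophil and type 2 group had the lowest photon median. All 7 of its tested members (Ccl11, Ccl24, Ccl17, Ccl22, Ccr3, Ccr4 and Ccr8) were estimated lower after photons, with a median log2 fold change of -1.61. Of these 3 passed, where 2.1% of all tested genes passed as lower (edgeR). The same 7 were also estimated lower in the carbon-ion controls than in the photon controls, with a median of -0.79, and Ccr4 alone passed. Ccr3, the eotaxin receptor of eosinophils, had 0.741, 1.85 and 4.07 CPM in the photon controls, against 0.0653, 0.404 and 0.901 CPM after photons, which are 1 to 41 counts. The log2 fold change was -2.06 ± 0.52 (edgeR adjusted p = 0.0255), and the irradiated range overlapped the lowest controls. After carbon ions Ccr3 had 0.290, 1.36 and 6.62 CPM, against 0.499, 0.994 and 2.03 CPM in the controls (1.05 ± 0.50, adjusted p = 0.846), so that both the highest and the lowest value of that arm came from irradiated tumours. The difference of effects was 3.10 ± 0.72 on the log2 scale (edgeR adjusted p = 0.0660), and the irradiated groups differed by 2.32 ± 0.53 (adjusted p = 0.0195).

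Ccl24, an eotaxin that binds Ccr3, had 0.712, 4.80 and 8.45 CPM in the photon controls, against 0.385, 1.04 and 2.68 CPM after photons. All 8 irradiated tumours were below the control median, but 3 controls lay inside the irradiated range. The log2 fold change was -1.90 ± 0.52 (edgeR adjusted p = 0.0366), and after carbon ions it was 0.97 ± 0.51 (adjusted p = 0.895), from medians of 1.38 and 3.93 CPM. The eotaxin Ccl11 had photon medians of 6.82 and 3.94 CPM and missed the threshold (-0.99 ± 0.30, adjusted p = 0.0527). Ccr4, the receptor of Ccl17 and Ccl22 on type 2 and regulatory T cells, was low, with 6 to 52 counts in the photon controls and 1 to 14 after photons. Its CPM values were 0.187, 0.632 and 1.47 against 0.0265, 0.234 and 0.330, and its log2 fold change was -1.67 ± 0.48 (edgeR adjusted p = 0.0446). The carbon-ion controls had a Ccr4 median of 0.240 CPM, close to that of the photon-irradiated tumours, and the difference from the photon controls was -1.50 ± 0.47 (edgeR adjusted p = 0.0403). That call was lost with the title letter as covariate, in the M-titled libraries alone, with no low-count filter or without the muscle-rich libraries. For this receptor the photon controls thus had the highest median of the 4 groups. Ccl17 and Ccl22 had photon log2 fold changes of -0.88 and -0.73 and Ccr8 of -1.61, without a call.

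Eosinophil and mast cell markers beside these values had 4 of 4 tested estimated lower after photons, with Siglecf passing (-0.93, edgeR adjusted p = 0.0130). After carbon ions 3 of the 4 were estimated lower, and 0 passed. In the carbon-ion controls all 4 were estimated lower than in the photon controls (median -0.54), and 0 passed. Between the irradiated tumours 2 of the 4 were estimated higher after carbon ions and 2 lower (median -0.11), with Siglecf passing as higher (1.01, edgeR adjusted p = 0.0141). The summed level was 16.9 to 79.6 CPM in the photon controls and 7.26 to 34.8 CPM after photons. The eosinophil granule genes Prg2 and Epx were too low to test, with at most 17 counts in a library, and Epx had a count of 0 in all carbon-ion irradiated libraries. The part of eosinophils in the Ccr3 and Ccl24 values was not tested.

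Of 7 tested members of the lymphoid tissue group none passed after either beam (edgeR), with 3 lower at an unadjusted p under 0.05 after photons and 0 after carbon ions. Cxcl12, the stromal ligand of Cxcr4, varied more within groups than between them, with 13.1, 40.0 and 175 CPM in the photon controls, against 5.73, 22.2 and 107 CPM after photons (-0.73 ± 0.58, edgeR adjusted p = 0.492). Fibroblast markers, 7 of 7 tested, summed to 12535 to 26771 CPM in the photon controls and to 9111 to 16902 CPM after irradiation, with Pdgfrb passing (-0.52), and their part in the Cxcl12 value was not tested. All 7 were estimated lower in the carbon-ion controls than in the photon controls (median -0.59), Col1a2 and Pdgfra passing. Cxcr4 had 14.4, 19.5 and 25.3 CPM in the photon controls, against 8.29, 14.9 and 25.2 CPM after photons (-0.37 ± 0.15, adjusted p = 0.136), and all 8 carbon-ion irradiated tumours lay at or above 19.1 CPM. Ccr7, which brings dendritic cells to lymph nodes, had photon medians of 6.57 and 4.92 CPM (-0.60 ± 0.28, adjusted p = 0.198). The B cell attractant Cxcl13 was at 0 in at least 1 library of every group and never above 2.26 CPM. B and plasma cell markers had 2 of 6 tested, and lymph node stroma markers 2 of 5, with 0 called and 0 at an unadjusted p under 0.05 after either beam (edgeR).

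In the epithelial and mucosal group, Ccr6 was the only member of 12 tested that passed after photons. Ccr6, the receptor of Ccl20, had 0.169, 0.585 and 0.731 CPM in the photon controls, or 9 to 32 counts, and 0.0796, 0.185 and 0.309 CPM after photons, or 3 to 9 counts. All but 1 control lay above the highest irradiated tumour. The log2 fold change was -1.54 ± 0.38 (edgeR adjusted p = 0.0209), and in the carbon-ion arm the medians were 0.286 and 0.232 CPM (0.06 ± 0.37). As with Ccr4, the photon controls had the highest median, with 8 of 8 carbon-ion controls below their median (-1.02 ± 0.36, edgeR adjusted p = 0.0687). Of 9 tested T cell markers, 8 were also estimated lower in the carbon-ion controls (median -0.72), with 0 passing. Their part in the Ccr4 and Ccr6 values was not tested. Ccl20, the ligand of Ccr6, had a photon log2 fold change of 0.26 ± 0.28. Cxcl16 and Cxcl14 were abundant. Cxcl16 kept within 68.03 to 130 CPM over all groups, with a photon log2 fold change of 0.17 ± 0.10, while Cxcl14 had photon medians of 184 and 51.8 CPM (-1.18 ± 0.44, edgeR adjusted p = 0.115). Ccl28, a mucosal ligand, had 8 of 8 photon-irradiated tumours above the control median (0.70 ± 0.23, adjusted p = 0.0695). Ccl25, Ccl27a, Cxcl15, Cxcl17, Ccr9, Ccr10 and Cxcr6 had photon log2 fold changes from -0.47 to 0.33.

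Cx3cl1, a membrane-bound ligand, and its receptor Cx3cr1 of monocytes and macrophages had photon log2 fold changes of 0.10 ± 0.13 and -0.10 ± 0.18. Cx3cl1 medians ran from 75.7 to 93.3 CPM over the groups. Xcr1, the receptor of cross-presenting dendritic cells, was estimated lower after both beams, with all 8 irradiated tumours below the control median in each arm, and passed in neither (-1.13 ± 0.41 after photons, -1.05 ± 0.39 after carbon ions, edgeR adjusted p = 0.100 and 0.634). Dendritic cell markers had 7 of 7 estimated lower after photons, Zbtb46 (-0.58), Itgax (-0.57) and Batf3 (-0.83) passing, and 6 of 7 after carbon ions with 0 passing. All 7 were also estimated lower in the carbon-ion controls than in the photon controls (median -0.29), Zbtb46 passing. The part of dendritic cell content in the Xcr1 value was not tested.

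Among the atypical receptors, Ackr1 fell and the rest did not pass. Ackr1, a chemokine-binding protein of venular endothelium, had 0.225, 1.80 and 8.22 CPM in the photon controls, against 0.0515, 0.251 and 0.894 CPM after photons. Only 1 control lay inside the irradiated range. The log2 fold change was -2.70 ± 0.67 (edgeR adjusted p = 0.0225), and without photon control 3 the adjusted p was 0.0875. In the carbon-ion arm the medians were 1.13 and 0.377 CPM (-1.12 ± 0.64, adjusted p = 0.932). An exon of Ackr1, at chr1:173331886-173333750 on the minus strand, overlaps Cadm3 on the same strand, and Cadm3 had a photon log2 fold change of -2.36 (edgeR adjusted p = 0.0778), so reads of these genes could be split between them. Blood endothelial markers had 6 of 6 estimated lower after photons, Tek (-0.91) and Emcn (-0.55) passing, with summed levels of 221 to 437 CPM in the photon controls versus 161 to 386 CPM in the irradiated tumours. The same 6 were also estimated lower in the carbon-ion controls than in the photon controls (median -0.47), Emcn passing. Their part in the Ackr1 value was not tested. Lyve1 alone of 5 lymphatic endothelial markers passed (-2.40, adjusted p = 0.0310). Ackr2, Ackr3 and Ackr4 had photon log2 fold changes from -0.18 to 0.16.

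Ligands and their receptors were also compared over the 32 tumours after subtracting each group's mean, so that the treatment difference itself does not enter. Of 18 pairs computed, 7 had a Benjamini-Hochberg adjusted p under 0.05 for Pearson's r (two-sided, 100000 permutations within groups), of which 6 are described. The monocyte pair Ccl2 and Ccr2 had r = 0.79 (permutation p = 1e-05, the smallest these permutations can give, adjusted p = 6e-05) and Spearman's rho = 0.77 (permutation p = 2e-05). Ccl7 and Ccr2 had r = 0.77 and rho = 0.77, and Cx3cl1 and Cx3cr1 had r = 0.78 and rho = 0.70, with the same adjusted p for r. Cxcl5 and Cxcr2 had r = 0.65 and rho = 0.73 (permutation p = 0.00034 and 5e-05, adjusted p = 0.00153 for r). Ccl11 and Ccr3 had r = 0.54 and rho = 0.46 (adjusted permutation p = 0.00288 for r), and Ccl22 and Ccr4 r = 0.53 and rho = 0.49 (0.0123). Tumours with much of these ligands thus also had much of the receptor. Without the 2 libraries farthest from the ligand's median the r was 0.78, 0.76, 0.73 and 0.67 for Ccl2, Ccl7, Cx3cl1 and Cxcl5 with their receptors, which all passed again. For Ccl11 and Ccr3 it was 0.43 and for Ccl22 and Ccr4 0.44, with adjusted permutation p = 0.0533 and 0.0777, neither passing. Within the M-titled libraries, r was 0.86, 0.78, 0.76, 0.64 and 0.54 for Ccl2, Ccl7, Cx3cl1, Cxcl5 and Ccl11 with their receptors, all passing, and 0.49 for Ccl22 and Ccr4, not passing. Cxcl10 and Cxcr3 had r = 0.37 (adjusted permutation p = 0.0652), and 0.49 in the M-titled libraries (adjusted permutation p = 0.0349). Both values of a pair come from the same library and share its depth, its mix of cells, its muscle content and its collection day. The part of these in the correlations was not tested. Pairs of other genes were not computed, so the 7 of 18 cannot be set against a share over all genes.

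**Figure D4:**
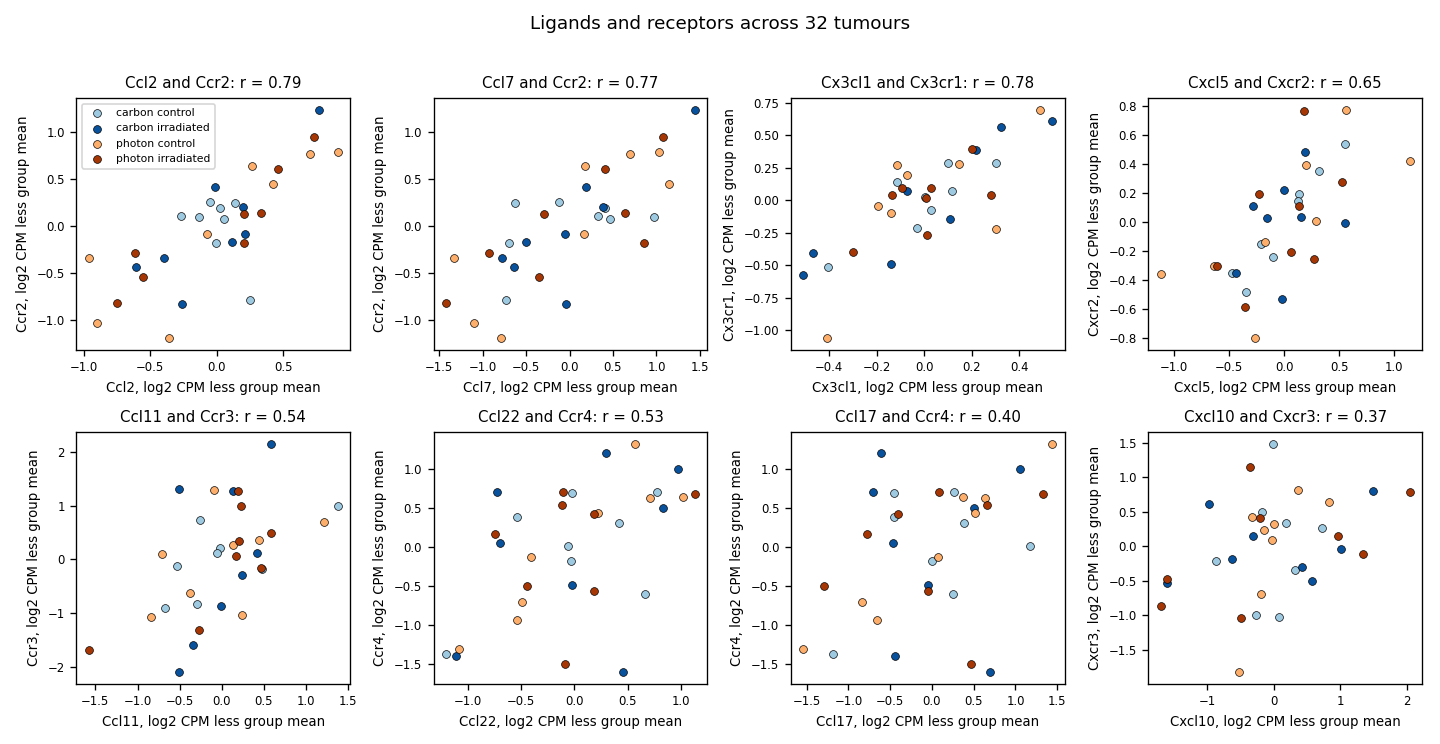
Receptor against ligand in log2 CPM less the group mean for 8 pairs, each point a library of the 32 and its colour the group, with Pearson's r above each panel. Ccl2 and Ccr2 (r = 0.79), Ccl7 and Ccr2 (0.77) and Cx3cl1 and Cx3cr1 (0.78) lie closest to a line, and Cxcl10 and Cxcr3 (0.37) are the most scattered of the 8.

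Other genes of the pathway were read from the same fit. Of 39 tested genes for signalling, desensitization and processing of chemokines, 4 fell after photons and 0 rose, where 2.1% of all tested genes fell and 1.71% rose: Cmklr1, the chemerin receptor (-0.47, edgeR adjusted p = 0.0379), the kinases Pik3cg (-0.52, adjusted p = 0.0325) and Fgr (-0.65, adjusted p = 0.0259), and Dpp4, a protease that trims chemokines (-1.60, adjusted p = 0.0310). None passed after carbon ions, with 4 higher and 0 lower at an unadjusted p under 0.05 (edgeR). Mmp12, a macrophage protease that cleaves chemokines, was higher after carbon ions than after photons by 1.10 (adjusted p = 0.0486), with group means of 63.1 and 29.4 CPM. Of 21 tested genes of inducing signals, Il33 (-0.70, adjusted p = 0.0156) and Ltb (-0.90, adjusted p = 0.0430) fell after photons and 0 rose, beside the same 2.1% and 1.71% over all genes. Group means of Il33 were 205 and 126 CPM in the photon arm and 111 and 139 CPM in the carbon-ion arm, and the controls of the arms differed (-0.88, edgeR adjusted p = 0.00114). The cytokine Tnf and the interferon-gamma receptor genes Ifngr1 and Ifngr2 were higher after carbon ions than after photons, by 0.65, 0.39 and 0.41 on the log2 scale. They were the 3 of 21 that passed as higher there, where 3.55% of all tested genes did (edgeR). Ifngr1 was already higher in the carbon-ion controls than in the photon controls, by 0.47.

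Members lie in clusters on a few chromosomes. The 13 tested members on chromosome 11, which are 10 CC ligands with Cxcl16, Ccr7 and Ccr10, had 9 estimates below 0 after photons (median -0.60) and 11 above 0 after carbon ions. The 13 on chromosome 9, mostly receptors, had 11 below 0 after photons, with Ccr1, Ccr3 and Ccr4 called. Neighbours did not all move alike. Of the 10 on chromosome 5, which holds Cxcl9, Cxcl10 and Cxcl11, 7 were below 0 after photons, and it held both members that rose and Ccl24, which fell.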

How the data were processed

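Bulk RNA of 32 tumours was sequenced from a stranded mRNA library, per the labels' protocols. The deposited table holds expected counts per gene, which the authors made with RSEM 1.3.3 on mm10 after Trimmomatic 0.32 and FastQC 0.12.0, per the submitters' processing notes. None of the 853648 values above 0 was whole, so the deposited values may have been rescaled. The annotation and the use of strand in counting are not given in the sources used here.

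Values were rounded to whole counts, which changed library totals by at most 0.00403%. Genes passing edgeR's filterByExpr (minimum count 10, 20474 of 55103) were fitted over 32 libraries in 1 quasi-likelihood model with TMM scaling (edgeR 4.0.16, R 4.3.3). Adjusted p-values are Benjamini-Hochberg over all genes tested (threshold 0.05), and SE derives from the F statistic. CPM uses TMM library sizes, and log2 CPM a prior count of 2. The planned design assumed whole counts. Pair correlations used numpy 2.4.6 and pandas 2.3.3. The fitting was tested on simulated data.

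The members and lists were chosen with earlier results of these data known. Single values of 1 member and 1 inducing gene, and pairs that hold them, are not reported here, though counts over lists include them. Members with full values were those called in any comparison, the 3 with the smallest p in each comparison, and fixed ligands and receptors of each axis. Alternatives were DESeq2 1.42.0, upper-quartile and RLE scaling, no filter, a filter of 1 CPM in 8 libraries, the title letter as covariate, M-titled libraries alone, each library left out and, added after seeing the data, the 6 muscle-rich libraries left out.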

Additional observations from a re-analysis of the deposited data

Results flagged for a closer look

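Among 92 sets of 8 libraries (23 members by 4 groups), 2 held a value whose gap to the nearest other library, over the range of the group in log2 CPM, exceeded Dixon's 95% critical value, while chance flags about 1 in 20 sets. Ccr2 was at 19.5 CPM in carbon-ion control 1, with the other 7 between 29.6 and 40.0 CPM and a gap of 0.583 of the range. Cxcl1 was at 20.7 CPM in carbon-ion control 4, with the other 7 between 10.1 and 13.0 CPM and a gap of 0.647 of the range. Neither member passed in a comparison that uses the carbon-ion controls.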

How the results depend on the processing

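No paired analysis was possible because the labels give no replicate numbers shared between groups. DESeq2 called 1 member higher after carbon ions, 11 lower after photons, 5 with a higher carbon-ion than photon effect and 2 higher in the carbon-ion controls, where its counts over all genes were 17, 1518, 270 and 2379, against 0, 781, 16 and 1871 by edgeR. With no filter on low counts (60 members tested), 1 member was higher after photons, 2 were higher after carbon ions than after photons, and 0 were higher or lower between the controls. With 1 CPM required in 8 libraries, which left 42 members tested in place of 54 and left out Cxcl11, Ccr4 and Ccr6, 1 was higher after photons, and 2 higher and 0 lower between the controls. In the M-titled libraries alone, 1 was higher after photons and 0 higher or lower between the controls. With the title letter as covariate, 3 were higher after carbon ions than after photons and 0 higher or lower between the controls. Upper-quartile scaling called 1 member with a higher carbon-ion than photon effect, and 94 of all genes. Without the 6 muscle-rich libraries, 0 were higher and 0 lower after photons, and 0 higher or lower between the controls. Counts over all genes for the photon effect were 431 with no filter, 966 with the CPM filter, 664 in the M-titled libraries, 722 with the covariate and 5 without the muscle-rich libraries. Between the controls they were 1383, 2125, 973, 1081 and 656, and between the irradiated tumours 319 with no filter and 502 with the covariate, against 1041. Beyond the members and libraries left out, the cause was not tested.

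With each of the 32 libraries left out, members called lower after photons ranged from 1 (without photon control 3) to 11 (without photon control 2), where 239 and 1656 of all genes were called, with 3 without photon controls 1 or 8 or photon-irradiated library 7, and 4 without photon control 5 or photon-irradiated libraries 1, 3 or 6. Members higher after photons ranged from 1 (photon controls 1, 3, 6, 8, photon-irradiated 2, 3, 4, 7, 8) to 4 (photon control 2). Members higher after carbon ions than after photons ranged from 2 (carbon-ion irradiated 2, 5, photon-irradiated 1, 3, 7) to 8, with 3 without carbon-ion or photon-irradiated library 6. For the difference of effects the count of higher members ranged from 0 to 4 (photon control 2), and was 2 without carbon-ion control 5 or carbon-ion irradiated libraries 2 or 7. Between controls, higher members ranged from 0 (carbon-ion controls 2, 7, 8, photon controls 3, 6, 8) to 3 (carbon-ion control 5), and lower members from 0 (carbon-ion controls 1, 2, 4, 6, 8, photon controls 1, 3, 5, 8) to 2 (carbon-ion control 5, photon control 2). Over these fits, counts over all genes ranged from 108 to 2159 between the irradiated tumours, 5 to 108 for the difference of effects and 1178 to 2196 between the controls.

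Estimates near 0 changed sign for Cxcl12 after carbon ions (-0.646 to 0.124 with 1 library left out, above 0 without carbon-ion control 5 or 6) and for the correlation of Cxcl13 with Cxcr5 (0.0137 without the 2 farthest libraries). RLE scaling kept the direction and the side of the threshold in 40 of 40 single-member values, DESeq2 in 34 of 40, with 6 newly called. Members under 10 counts in several libraries (Cxcl11, Ccr3, Ccr4, Ccr6, Ackr1) are limited by depth.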
